A study of Danio rerio with 12 samples.

Results

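The genes described here code for the proteins of the muscle sarcomere and their closest relatives: the myosin heavy and light chains, troponins, tropomyosins, sarcomeric actins and actinins, myosin binding proteins, nebulin and titin. They were chosen by gene symbol alone, by the symbol prefixes of these families, among probe sets annotated with 1 symbol. With 1 probe set kept per gene, that of highest mean signal, 77 genes were found among the 18985 named genes on the array. All 77 reached the level set for testing. Because the prefixes also take in relatives outside striated muscle, 12 of the 77 are smooth muscle or non-muscle genes, among them the smooth muscle actin acta2 and the non-muscle myosin myh9a. Of the others, 13 were placed in a fast skeletal class, 10 in a slow skeletal class and 10 in a heart class, and 32 were shared between muscles or left unassigned. The classes follow general knowledge of the symbols, but were set with earlier results of these data known. They are least certain for tnnt2c, tnnt2e and tpm3 (slow) and tpm4a (heart). Some of the 32, such as the kinase gene tnni3k, match a prefix without coding for a sarcomere protein.

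Whole larvae of the wild-type zebrafish line AB were profiled on 12 Affymetrix arrays. The 6 groups were control, 5-HT (serotonin) and reserpine larvae, each at 2 and at 4 days post fertilisation (dpf), with 2 biological replicates per group. Every array carried RNA from a pool of 30 to 40 larvae. All embryos had been taken out of the chorion with Proteinase K and injected. The 5-HT and reserpine groups received their agent at the zygote stage, per the titles, in a KCl solution with TRITC-dextran as marker. The controls received that solution with DMSO and ethanol, the solvents of reserpine, which blocks the vesicular monoamine transporter. If the 5-HT solution held neither solvent, 5-HT and solvent cannot be told apart where 5-HT larvae are compared with another group. No source used here gives the dose. The description of 4 dpf reserpine replicate 2 names an age of 2 days, against its title, source and age labels. That array was kept at 4 dpf. Its mean over 8 exocrine pancreas genes lay with the 4 dpf arrays, which spanned 12.74 to 13.07 against 6.52 to 8.07 at 2 dpf.

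The sarcomere is the contractile unit of striated muscle. Myosin thick filaments pull on actin thin filaments when calcium binds troponin C, and troponin I and troponin T, together with tropomyosin, pass this signal along the thin filament. Titin and nebulin span the filaments, and alpha-actinin anchors the thin filaments at the Z-disc. Fast, slow and heart muscle use different members of the same families, and in the zebrafish embryo the slow fibres form a superficial layer over the fast fibres of the trunk.

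The values are the deposited log2 expression values, so that a difference of 1 is a 2-fold difference, and they show how a probe set differs between arrays but not how genes compare with each other. Over the 77 genes, r between replicate arrays was 0.981 to 0.997, and r across the ages was 0.913 to 0.963. A gene was called changed at a Benjamini-Hochberg adjusted p under 0.05 in limma, adjusted over all 58127 features tested. A count of arrays that do not overlap means that both arrays of one group lay above both of the other. In whole larvae, fewer cells of a muscle type and less RNA per cell cannot be told apart.

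Of the 15 genes with the highest signal, 3 in each class, 14 passed in none of the 11 comparisons tested with limma. The exception was acta2, which rose with age in all 3 groups and is described below. The largest share of all features called in any 1 comparison was 11.3%, between the ages in controls. The share of features called in none was not counted. Among fast genes, mylpfa, a regulatory light chain of fast myosin, lay between 13.24 and 13.42 on the 12 arrays. Its paralog mylpfb lay between 12.99 and 13.13, and the alpha-actinin gene actn3a between 12.44 and 12.96. Among slow genes, the slow myosin heavy chain gene smyhc1 ranged from 9.97 to 10.49, the troponin C gene tnnc1b from 10.87 to 11.54 and the tropomyosin gene tpm3 from 9.56 to 9.83. In the heart class, the actin gene actc1a ranged from 13.21 to 13.50, and the cardiac myosin light chain gene myl7 from 9.09 to 10.38, and the troponin T gene tnnt2a from 8.15 to 9.18. Among the shared or unassigned genes, the skeletal actin gene acta1b ranged from 13.12 to 13.47, the light chain gene myl1 from 13.33 to 13.58 and the troponin C gene tnnc2.2 from 13.37 to 13.49. The smooth or non-muscle light chain genes myl12.1 and myl9b ranged from 13.26 to 13.58 and from 11.65 to 12.39. A second probe set of tpm3, of lower signal and not used, disagreed with the first, with group means of 9.03 in 2 dpf controls and 7.72 in 4 dpf controls (-1.32, limma adjusted p = 0.00352).

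From 2 to 4 dpf, troponin genes changed in both directions in control larvae. The largest rises among the striated genes were in the fast troponin I gene tnni2a.1 and the troponin C gene tnnc2.1, and the largest fall was in the troponin T gene tnnt2c, placed in the slow class. Of the 77 genes, 13 were called (limma, Benjamini-Hochberg adjusted p under 0.05), 6 higher and 7 lower, where 11.3% of all features were called, 5.5% higher and 5.82% lower. Of the named genes, 8.28% were called higher and 7.19% lower. The median log2 change of the 77 was -0.07, beside -0.045 for all features. Both control arrays of 4 dpf lay above both of 2 dpf for 21 genes and below for 28, where 25% and 32.2% of features did so. Among named genes these shares were 29.6% and 36.6%. An unadjusted p under 0.05 was found for 22 genes, beside 27.1% of features.

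**Figure D1:**
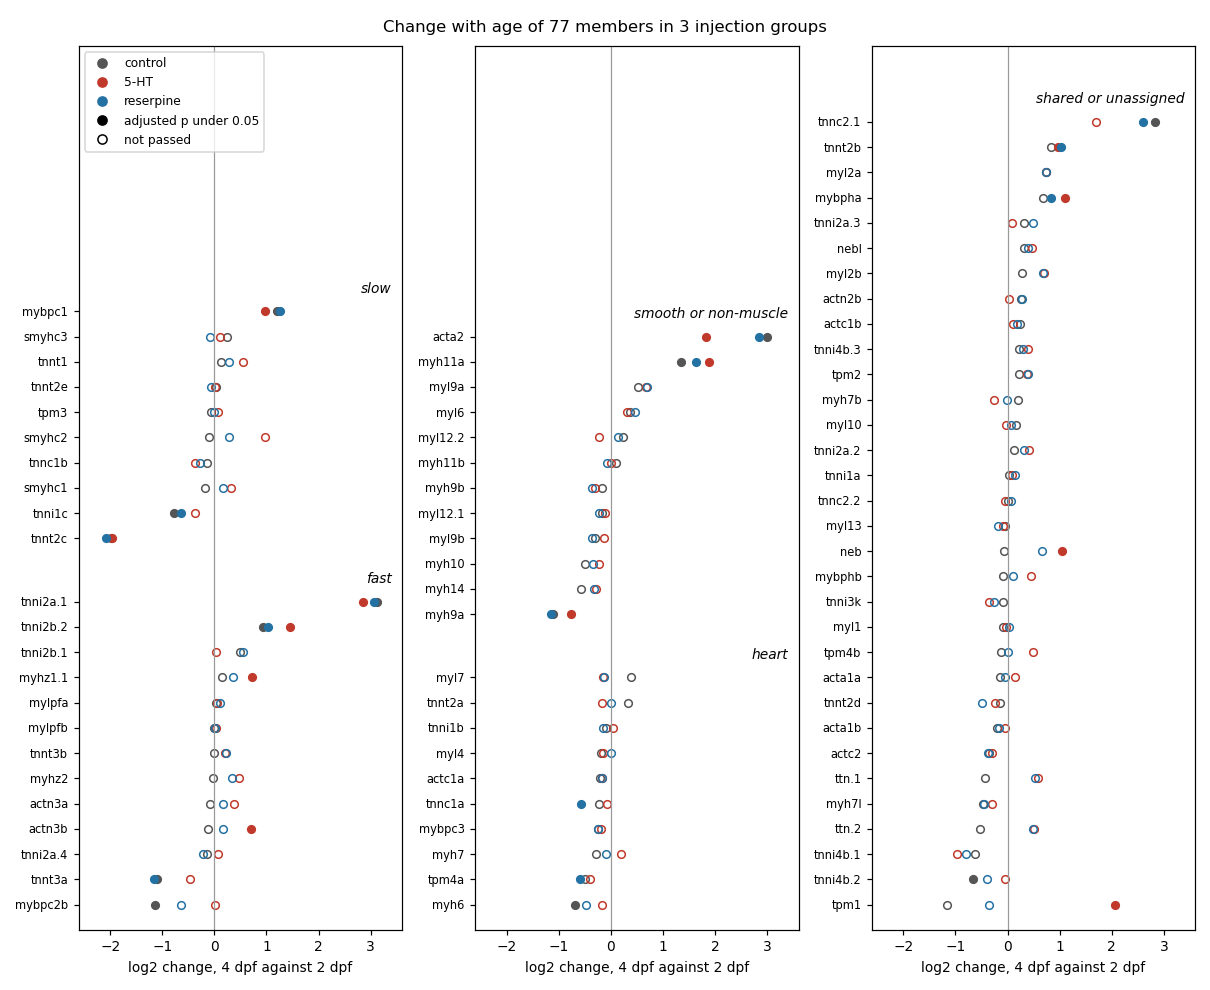
Log2 change from 2 to 4 dpf (horizontal axis) of each of the 77 genes (rows), by isoform class, in control (grey), 5-HT (red) and reserpine (blue) larvae. Filled points passed at an adjusted p under 0.05. The tnni2a.1 points lie at 2.86 to 3.12 and the tnnt2c points at -2.075 to -1.96, while the heart genes lie between -0.69 and 0.38.

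Troponin I, the inhibitory subunit, gave the largest rise among the striated genes. At 2 dpf the fast gene tnni2a.1 stood at 6.11 and 7.08 on the control arrays, 6.97 and 6.73 with 5-HT and 5.97 and 7.39 with reserpine. At 4 dpf it stood at 9.74 and 9.69 in controls, 9.67 and 9.74 with 5-HT and 9.85 and 9.63 with reserpine. Every 4 dpf array thus lay above every 2 dpf array, and the 4 dpf arrays were much closer together than those of 2 dpf. In controls it rose by 3.12 (SE 0.42, limma adjusted p = 0.00234), an 8.69-fold difference, and it was called with both other injections, at 2.86 and 3.06. The 2 dpf values of tnni2a.1 lay on both sides of the array medians of 6.44 to 6.56. A second fast troponin I gene, tnni2b.2, rose in all 3 injection groups, by 0.94 in controls (SE 0.17, limma adjusted p = 0.00907), 1.46 with 5-HT and 1.03 with reserpine. The slow troponin I gene tnni1c fell by 0.77 in controls (SE 0.14, limma adjusted p = 0.0108) and by 0.65 with reserpine, and its change with 5-HT did not pass. Of the unassigned troponin I genes tnni4b.1, tnni4b.2 and tnni4b.3, only tnni4b.2 was called, in controls, where it fell by 0.67 (limma adjusted p = 0.0460). That call was lost when either 4 dpf control array was left out (adjusted p = 0.162 without replicate 1 and 0.209 without replicate 2), and without the filter on low features (0.0554).

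Among the genes of troponin C, the calcium-binding subunit, only tnnc2.1 was called higher, as tnni2a.1 was, in controls and with reserpine. The gene tnnc2.1 measured 6.62 and 7.69 on the 2 dpf control arrays, 7.77 and 8.29 with 5-HT and 6.44 and 8.06 with reserpine. At 4 dpf it measured 9.96 and 10.01 in controls, 9.61 and 9.83 with 5-HT and 9.91 and 9.80 with reserpine. It rose by 2.83 in controls (SE 0.48, limma adjusted p = 0.00724) and by 2.61 with reserpine. Its 2 dpf values, 6.44 to 8.29, reached down to the array medians of 6.44 to 6.56. With 5-HT its arrays of the 2 ages did not overlap either, but the change of 1.69 did not pass (limma adjusted p = 0.0570). The control call ended without 2 dpf control replicate 1 (adjusted p = 0.0650) or 4 dpf control replicate 2 (0.0567). Its paralog tnnc2.2 was not called.

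Troponin T ties the complex to tropomyosin, and its genes did not move together. The levels of tnnt2c at 2 dpf were 10.42 and 10.14 in controls, 10.55 and 10.11 with 5-HT and 10.20 and 10.33 with reserpine. At 4 dpf they were 8.57 and 8.04, 8.08 and 8.66, and 8.18 and 8.2 in the same order. A further probe set carries tnnt2c beside another symbol and could not be assigned to 1 gene. Its means at 2 and 4 dpf were 9.085 and 8.795 in controls, 8.81 and 9 with 5-HT and 8.97 and 8.65 with reserpine. With 5-HT it was thus higher at 4 dpf. On the tnnt2c probe set used, no 4 dpf array reached the lowest 2 dpf array. The gene fell by 1.98 in controls (SE 0.25, limma adjusted p = 0.00159), by 1.96 with 5-HT, and it fell by 2.075 with reserpine, and these calls held in every alternative run. The fast gene tnnt3a fell by 1.1 in controls (SE 0.16, limma adjusted p = 0.0030) and by 1.16 with reserpine. In 5-HT larvae, whose 2 dpf arrays read 11.01 and 10.87 against 11.53 and 11.51 in the 2 dpf controls, its change did not pass. Its paralog tnnt3b was not called and lay between 12.51 and 12.84. The troponin T gene tnnt2b rose by 0.96 with 5-HT and by 1.02 with reserpine, and in controls its change of 0.84 did not pass (limma adjusted p = 0.0548). A second probe set of tnnt2b, of lower signal, showed changes of 0.21 in controls, 1.14 with 5-HT and 0.21 with reserpine, and the mean of both did not pass with reserpine (limma adjusted p = 0.147).

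**Figure D2:**
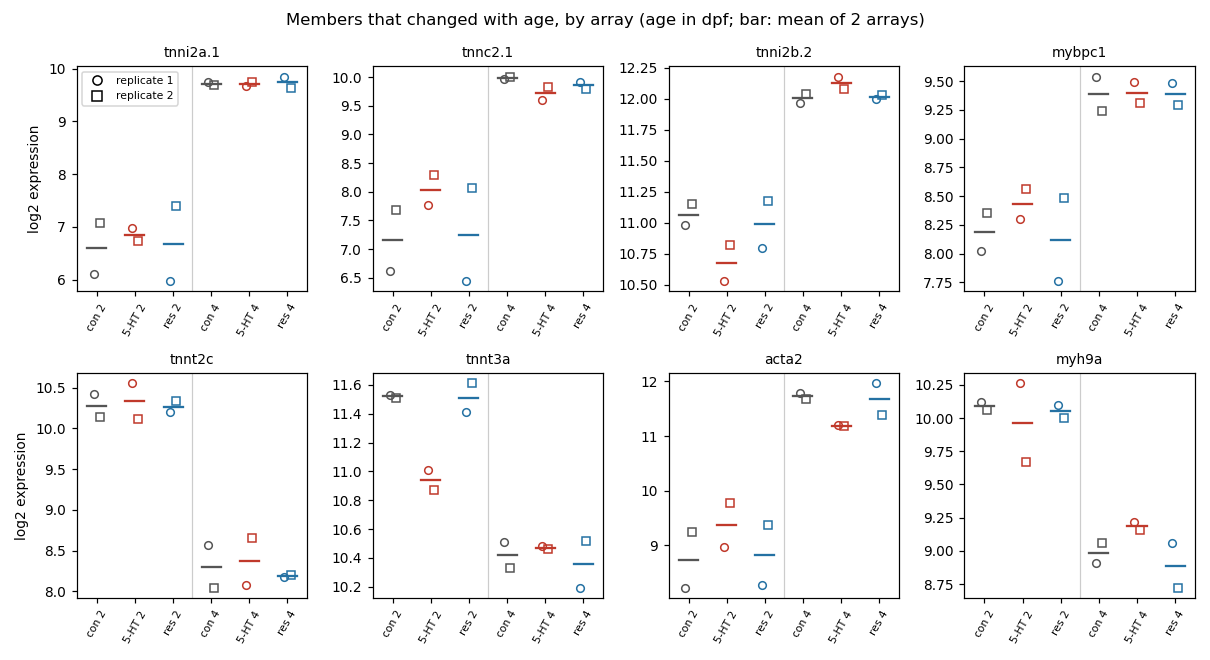
Log2 expression (vertical axis) on each array of 8 genes that changed with age, in control (con), 5-HT and reserpine (res) larvae at 2 and 4 dpf; circles are replicate 1, squares replicate 2 and bars the mean of 2 arrays. The 2 dpf and 4 dpf arrays do not overlap for any of the 8 genes, with tnni2a.1 below 7.40 at 2 dpf and above 9.60 at 4 dpf.

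Among the myosin binding proteins, which lie along the thick filament, the slow C protein gene mybpc1 rose and the fast gene mybpc2b fell in control larvae. The slow gene mybpc1 measured 8.02 and 8.35 in 2 dpf controls and 9.54 and 9.24 in 4 dpf controls, and rose by 1.21 (SE 0.24, limma adjusted p = 0.0150). It also rose by 0.97 with 5-HT and by 1.27 with reserpine. The fast gene mybpc2b fell by 1.15 in controls (SE 0.17, limma adjusted p = 0.00351) and was not called in the other groups. Its change was -0.635 with reserpine (limma adjusted p = 0.0512) and 0.02 with 5-HT (0.959). A probe set that carries another fast C protein symbol beside a second symbol could not be assigned to 1 gene, and its means at 2 and 4 dpf were 6.37 and 8.16 in controls, 6.56 and 8.305 with 5-HT and 6.835 and 8.185 with reserpine. The heart gene mybpc3 was not called. The gene mybpha, for myosin binding protein H, rose by 1.11 with 5-HT and by 0.83 with reserpine. In controls its change of 0.685 did not pass (limma adjusted p = 0.0690). Every 4 dpf array of mybpha lay above every 2 dpf array, and its paralog mybphb was not called. The mybpc1 call in controls was lost when replicate 1 of 2 dpf was left out (adjusted p = 0.110), and also without either control array of 4 dpf (0.103 for replicate 1 and 0.0598 for replicate 2), whereas the mybpc2b control call held in every alternative run.

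The myosin heavy chains, the motor proteins, changed less in control larvae. The atrial heavy chain gene myh6 fell by 0.69 (SE 0.18, limma adjusted p = 0.0383), from 8.23 and 8.23 to 7.55 and 7.53, and its call was lost when any control array was left out (adjusted p = 0.0941 to 0.183). The fast genes myhz1.1 and myhz2 and the slow genes smyhc1, smyhc2 and smyhc3 did not pass in controls. With 5-HT, myhz1.1 rose by 0.72 (SE 0.16, limma adjusted p = 0.0242), from 11.32 and 11.48 to 12.17 and 12.07. That call was lost without either 5-HT array of 2 or 4 dpf (adjusted p = 0.0741 to 0.147). Zebrafish fast myosin genes are close copies that lie side by side, so signal may be shared among them. A pair of probe sets that carry only fast myosin heavy chain symbols, but more than 1 each, had control means of 12.32 and 12.52 at 2 dpf and 12.07 and 12.53 at 4 dpf. Another probe set, which carries a fast myosin symbol beside 2 others, was higher at 4 dpf in each group, with means of 7.65 and 10.225 in controls, 7.485 and 10.475 with 5-HT and 7.605 and 10.495 with reserpine.

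Called in 5-HT larvae and in neither other group were myhz1.1, tpm1, neb and actn3b. In the same order, they changed by 0.35, -0.355, 0.665 and 0.17 with reserpine. In controls they changed by 0.145, -1.165, -0.065 and -0.125. The share of all features called with 5-HT alone was not counted. The nebulin gene neb rose by 1.04 (SE 0.25, limma adjusted p = 0.0315), from 10.89 and 10.42 to 11.85 and 11.54. The alpha-actinin gene actn3b rose by 0.70 (SE 0.18, limma adjusted p = 0.0412). Its second probe set, of lower signal and not used, did not pass with 5-HT (0.52, limma adjusted p = 0.159). That probe set changed by 0.48 with reserpine and by 0.20 in controls. The tropomyosin gene tpm1 rose by 2.06 (SE 0.34, limma adjusted p = 0.00794), and its values are given with the test between ages below. For neb, actn3b and myhz1.1 the difference between 5-HT and control in the change with age did not pass (limma adjusted p = 0.144, 0.136 and 0.233), and that between 5-HT and reserpine was not tested. Over all 77 genes, 13 were called in 5-HT larvae, 11 higher and 2 lower, with 9.22% of all features called (5.06% higher and 4.15% lower). In reserpine larvae 14 were called, 8 higher and 6 lower, with 6.95% of features called (4.45% higher and 2.5% lower). Of the named genes, 7.34% were called higher and 4.62% lower with 5-HT, and 6.51% and 4.54% with reserpine.

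Across the 3 injection groups, 5 genes were called higher in all 3, tnni2a.1, tnni2b.2, mybpc1, acta2 and myh11a. A pair, tnnt2c and myh9a, was called lower in all 3. Of all features, 2.58% were called higher and 0.705% lower in all 3. A further 56 genes were called in none. Between the ages, 11.3% of all features were called in controls, 9.22% with 5-HT and 6.95% with reserpine. The share of features called in none of the 3 was not counted. Over all 6 arrays of each age, 14 of the 77 genes had every 4 dpf array above every 2 dpf array and 10 had every one below, where 7.43% and 7.06% of features did so.

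The calls that held in every alternative were those of tnnt2c and tnni2a.1 in all 3 groups, tnnt3a, acta2 and mybpc2b in controls, tnni2b.2 in 5-HT larvae and acta2 in reserpine larvae. In controls tnni2b.2, tnni1c and myh9a each lost the call without 2 dpf control replicate 1 or either 4 dpf control array (adjusted p = 0.0561 to 0.0784). In 5-HT larvae mybpc1, mybpha, neb, tnnt2b, actn3b and acta2 lost it without any 1 of the 4 5-HT arrays (adjusted p = 0.0566 to 0.192). There myh9a lost it without 3 of those 4 (up to 0.209), tpm1 without 2 dpf replicate 2 (0.0532) or 4 dpf replicate 1 (0.0668), and myh11a without replicate 1 of either age (up to 0.0853). In reserpine larvae tnnc2.1, mybpc1, myh11a, tnni1c, tnnt2b and mybpha lost it without 4 dpf reserpine replicate 1 (0.0828 to 0.189). With only the reserpine arrays in the fit, tnnt3a (0.0777), tnni2b.2 (0.102) and myh9a (0.0737) did not pass either.

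The heart class leaned down with age. Of its 10 genes, 8 lay below 0 in controls, 8 with 5-HT and 9 with reserpine, with medians of -0.23, -0.16 and -0.17. Replicates of the 2 ages did not overlap, lower at 4 dpf, for 7, 5 and 7 of the 10, where 32.2%, 32.5% and 26.7% of features did so. Among named genes these shares were 36.6%, 34.9% and 33.7%. None of the 10 was higher at 4 dpf without overlap in any group. Few passed the test. They were myh6 in controls, and in reserpine larvae the tropomyosin gene tpm4a, which fell by 0.60, and the heart troponin C gene tnnc1a, which fell by 0.57. The reserpine calls of tpm4a and tnnc1a were lost without 1 of several arrays (adjusted p up to 0.169 and 0.202 without 4 dpf reserpine replicate 1). The cardiac genes myl7 and tnnt2a, a troponin T gene, had control changes of 0.38 and 0.34, which did not pass. Without 2 dpf control replicate 1 these were -0.10 and -0.06, and without replicate 2 they were 0.86 and 0.73 and passed (limma adjusted p = 0.0339 and 0.0462). On 2 dpf control replicate 1 myl7 read 9.09 against 10.05 on replicate 2, and tnnt2a read 8.15 against 8.94. The same array had a mean over 5 liver genes of 9.37, against 10.76 to 10.99 on the other arrays of 2 dpf. Whether its liver and heart values are related was not tested.

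The fast class had medians of -0.015 in controls, 0.195 with 5-HT and 0.175 with reserpine. Its genes lay above 0 in 6 of 13, 12 of 13 and 10 of 13 cases. The slow class had medians of -0.09, 0.09 and -0.04. Placing 4 further fast paralogs, tnnc2.1, tnnc2.2, tnni2a.2 and tnni2a.3, in the fast class moved its control median to 0. These 3 comparisons use separate arrays, but the medians were not tested against each other.

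Of the 12 smooth and non-muscle relatives, 3 were called between the ages, acta2, myh11a and myh9a, each in all 3 groups, and 9 in none. Of all features, 2.58% were called higher and 0.705% lower in all 3 groups. The smooth muscle actin gene acta2 read 8.22 and 9.25 in 2 dpf controls and 11.79 and 11.67 in 4 dpf controls, and rose by 2.995 (SE 0.43, limma adjusted p = 0.00321). It rose by 1.82 with 5-HT and by 2.85 with reserpine. The smooth muscle myosin heavy chain gene myh11a rose by 1.34 in controls (SE 0.34, limma adjusted p = 0.0346), by 1.89 with 5-HT and by 1.64 with reserpine. The control call of myh11a ended without 2 dpf control replicate 1 (adjusted p = 0.209). The non-muscle myosin heavy chain gene myh9a fell by 1.11 in controls (SE 0.20, limma adjusted p = 0.00975), by 0.78 with 5-HT and by 1.16 with reserpine. Other smooth muscle markers rose with them. Of 6, 5 were called higher in controls, including the calponin gene cnn1b (1.65) and the transgelin gene tagln (1.57), and 3 in each of the other groups. Of all features, 5.5% were called higher in controls, 5.06% with 5-HT and 4.45% with reserpine. The mean of the 6 lay between 7.78 and 8.24 on the 2 dpf arrays and between 8.81 and 9.08 on the 4 dpf arrays.

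Genes that build, fuel or excite the sarcomere were mixed in control larvae, where 5.5% of all features were called higher and 5.82% lower. Of 42 Z-disc, M-band and chaperone genes, 3 were called higher and 5 lower. The myosin chaperone gene unc45b fell by 1.19 (SE 0.23, limma adjusted p = 0.0129), klhl40b, which in mouse stabilises thin filament proteins, fell by 0.99, and the desmin gene desmb rose by 2.04. Of 23 muscle regulators, none was called higher and 3 were called lower, the methyltransferase gene smyd1b (-0.92), needed for thick filament assembly, pax3b (-0.55) and the fusion gene mymk (-0.53). Of 28 calcium handling genes, 3 were called higher, the calcium pump genes atp2a1l (1.18) and atp2a2a (0.90) and the junctophilin gene jph2 (0.81), and 1 lower, asph (-1.09). Of 23 energy genes, 3 were called higher, the cytochrome oxidase genes cox6a2 (1.47) and cox7a1 (1.38) and the mitochondrial creatine kinase gene ckmt2a (1.08), and 1 lower, the phosphofructokinase gene pfkmb (-1.15). Of 24 junction and membrane complex genes, 1 was called in each direction, sntb1 (0.56) and the sarcoglycan gene sgcd (-0.63). Of 14 heart factors, the natriuretic peptide gene nppal was called higher (0.96), and hand2 (-0.93) and tbx5a (-0.62) lower.

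At 2 dpf, 5-HT larvae were compared with control larvae. None of the 77 genes was called (limma), where 0.00688% of all features were (0.00172% higher and 0.00516% lower), and 14 of the 77 had an unadjusted p under 0.05, beside 14.9% of features. Among these values the fast class lay lower. Of the 13 fast genes, 10 lay below the control mean, with a median of -0.37, beside -0.13 for the slow class, 0.085 for the heart class and -0.01 for all features. With the 4 further fast paralogs counted, the fast median was -0.175, and 10 of 17 genes lay below control. Both 5-HT arrays lay below both control arrays for 8 of the 13 fast genes, 6 of the 10 slow genes and 3 of the 10 heart genes, where 22.7% of features did so. That count was 26 of 77 over all the genes (33.8%), and in the other direction it was 8 (10.4%, where 20.6% of features did so). Among named genes, 20.1% lay below control without overlap and 21.2% above. The mean of the fast class was 11.04 and 11.15 on the control arrays and 10.75 and 10.86 on the 5-HT arrays.

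The genes with the smallest p in this comparison were fast or unassigned genes. Among them was the unassigned gene tpm1 (-1.49), whose arrays are given below. The fast gene mybpc2b measured 10.65 and 10.46 in controls and 9.44 and 9.80 with 5-HT, a difference of -0.94 (SE 0.17, limma adjusted p = 0.0659). The gene tnnt3a differed by -0.58 (SE 0.16, limma adjusted p = 0.137), with the arrays given above. The gene myhz1.1 read 11.87 and 12.06 in controls and 11.32 and 11.48 with 5-HT, a difference of -0.57 (limma adjusted p = 0.148). For mybpc2b, tnnt3a and myhz1.1, the arrays of the groups did not overlap. The gene actn3b read 12.46 and 12.22 against 11.72 and 11.78 (-0.59, limma adjusted p = 0.175), and its second probe set, which was not used, differed by -0.45. The 2 probe sets with several fast myosin symbols had means of 11.55 and 11.84 with 5-HT, against 12.32 and 12.52 in controls. The fast light chain genes mylpfa and mylpfb differed by 0.015 and -0.03. The 3 fast genes above control differed by up to 0.365. The largest difference above control among the 77 genes was 0.875, in the further fast paralog tnnc2.1, without overlap of arrays. The 2 dpf 5-HT arrays of this comparison are also those of the change with age in 5-HT larvae.

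**Figure D3:**
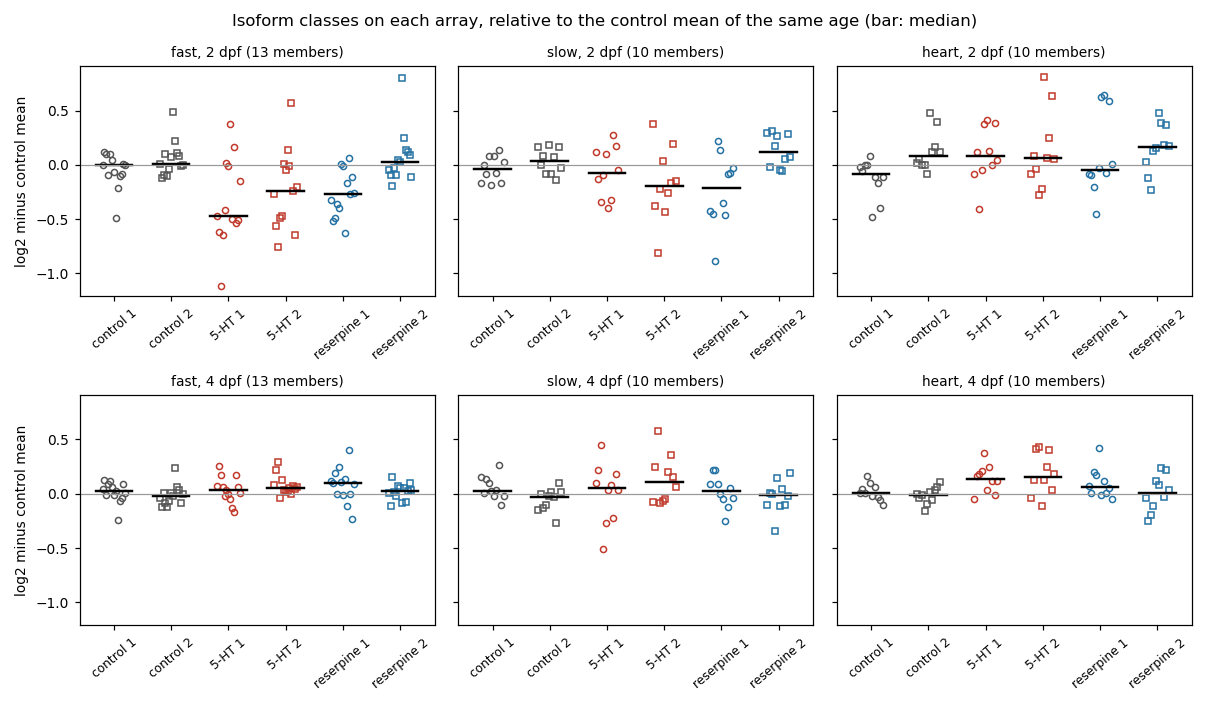
Log2 expression minus the control mean of the same age (vertical axis) for each fast, slow and heart gene on each array (horizontal axis, injection and replicate number), at 2 dpf above and 4 dpf below; points are genes and bars class medians. The fast medians at 2 dpf are -0.475 and -0.245 on the 5-HT arrays, -0.265 on reserpine replicate 1 and 0.03 on reserpine replicate 2.

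Other lists differed on the same arrays. The mean of 8 neuronal genes was 10.38 and 10.50 on the 2 dpf controls and 10.14 and 10.17 on the 5-HT arrays, with 7 of 8 genes below control. The mean of 3 epidermal genes was 12.40 and 12.42 on the controls and 12.72 and 12.78 on the 5-HT arrays, with 3 of 3 above. No gene of either list was called, and their part in the fast values was not tested. Of the genes beyond the sarcomere itself, 31 of 42 Z-disc, M-band and chaperone genes and 18 of 23 energy genes lay below control, with medians of -0.19 and -0.16, and none was called. The heart median depended on 2 dpf control replicate 1. Without it, the heart median was -0.03, with 6 of 10 genes below 0, and the fast median was -0.375.

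The 2 reserpine replicates of 2 dpf differed from each other in these genes. Replicate 1 lay below replicate 2 in 13 of 13 fast genes, with a median gap of -0.29, and in 9 of 10 slow genes, with a median gap of -0.33. In the heart class it was lower in 5 of 10. The fast mean was 10.83 on replicate 1 and 11.16 on replicate 2, so that replicate 1 lay near the 5-HT arrays and replicate 2 near the controls. Over all features the median gap was 0, but the gap was not confined to these genes. On the second principal component of all features, replicate 1 lay at -38.56 and replicate 2 at 32.86. The mean of 8 neuronal genes was 10.05 on replicate 1 and 10.45 on replicate 2. In the other direction, the mean of 3 epidermal genes was 12.70 and 12.39. Against control, reserpine called none of the 77 genes, as for 0% of features, with 5 genes at an unadjusted p under 0.05 (4.17% of features). Groups did not overlap for 4 genes higher and 12 lower, where 11.5% and 13.6% of features did so. Among named genes these shares were 9.64% and 10.6%. The 5 smallest p belonged to tnnc1a, tpm1, neb, ttn.2 and ttn.1. The heart troponin C gene tnnc1a was 7.03 and 7.26 in controls and 7.79 and 7.53 with reserpine (0.52, SE 0.15, limma adjusted p = 0.998). The titin genes ttn.1 and ttn.2 differed by -0.77 and -0.84, and neb by -0.67, each at an adjusted p of 0.998 in limma.

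The spread of the 2 dpf reserpine arrays entered the limma fit of every comparison. Without both of those arrays, a choice made after seeing the data, mybpc2b (adjusted p = 0.0246) and tpm1 (0.00769) passed between 5-HT and control at 2 dpf. The count over all features in that fit is not given here. The direct comparison of 5-HT with reserpine at 2 dpf called none of the 77, as for 0% of features. Its smallest p belonged to tnnt3a (-0.57), mybpc2b (-0.60), tnnc1a (-0.42), myhz1.1 (-0.37) and mybphb (-0.33), and the first 2 had limma adjusted p = 0.772. Arrays did not overlap for 5 genes higher and 13 lower with 5-HT, where 16.8% and 15.7% of features did so, and 4 genes had an unadjusted p under 0.05 (6.04% of features). Without overlap, 16.9% of named genes were higher and 10.9% lower. The 5-HT and reserpine comparisons with control share the control arrays, and are given side by side only.

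At 4 dpf the fast values of 5-HT larvae were close to those of controls. The fast median was 0.035, the slow median 0.055 and the heart median 0.15, beside -0.01 for all features and 0.035 for all named genes. None of the 77 was called in limma (0% of features), and 1, tpm1, had an unadjusted p under 0.05 (8.5% of features). In the heart class 9 of 10 genes lay above control and 7 of 10 did so without overlap of arrays. Over the 77 genes, 33 were higher and 10 lower without overlap (42.9% and 13%), where 21.6% and 24.2% of features were. Among named genes these shares were 26.9% and 19.7%. After tpm1 the smallest p belonged to myh7b (-0.28), tnnc1a (0.25), ttn.1 (0.52) and myh6 (0.295). The myh6 arrays read 7.55 and 7.53 in controls and 7.72 and 7.95 with 5-HT, with a limma adjusted p = 0.707.

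Reserpine at 4 dpf gave values within 0.27 of control for all 77 genes. None was called in limma (0% of features) and none had an unadjusted p under 0.05 (1.73% of features). The fast, slow and heart medians were 0.025, 0.005 and 0.025. Arrays did not overlap for 11 genes higher and 5 lower, where 11.3% and 10.7% of features did so. Among named genes these shares were 6.2% and 12.3%. The smallest p belonged to tnnc1a (0.18), myh7b (-0.18), the cardiac light chain gene myl4 (0.27), mybpc2b (0.17) and the alpha-actinin gene actn2b (0.135). Against reserpine, 5-HT larvae of 4 dpf also had none called (0% of features), with tpm1 (1.87, limma adjusted p = 0.208), mybpc3 (0.265), myh6 (0.295), tnni2a.3 (-0.31) and tnni1b (0.27) first by p. Arrays did not overlap for 21 genes higher and 11 lower, where 20.2% and 21.6% of features did so, and 1 gene had an unadjusted p under 0.05 (10.8% of features). Without overlap, 27.1% of named genes were higher and 16.2% lower, near the 27.3% and 14.3% of the 77.

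The difference between 5-HT and control changed with age for tpm1 and mybpc2b. The contrast took the difference at 4 dpf minus that at 2 dpf, and called 2 of the 77 genes higher (2.6%) and none lower in limma. An unadjusted p under 0.05 went to 16.6% of all features. Of all features 2.16% were called, 1.42% higher and 0.738% lower. Of the named genes 0.608% were called, 19 higher and 93 lower. The tropomyosin gene tpm1, whose product lies along the actin filament, measured 6.74 and 7.10 in 2 dpf controls and 5.49 and 5.37 in 2 dpf 5-HT larvae. At 4 dpf it measured 5.67 and 5.84 in controls and 7.58 and 7.39 with 5-HT. It lay below control at 2 dpf, by -1.49 (limma adjusted p = 0.103), and above it at 4 dpf, by 1.73 (limma adjusted p = 0.306), with no overlap of arrays at either age. The difference of these differences was 3.22 (SE 0.49, limma adjusted p = 0.0208). The second probe set of tpm3, which was not used, also passed in this contrast (1.435, limma adjusted p = 0.0324), while the one used did not (0.145, 0.76).

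**Figure D4:**
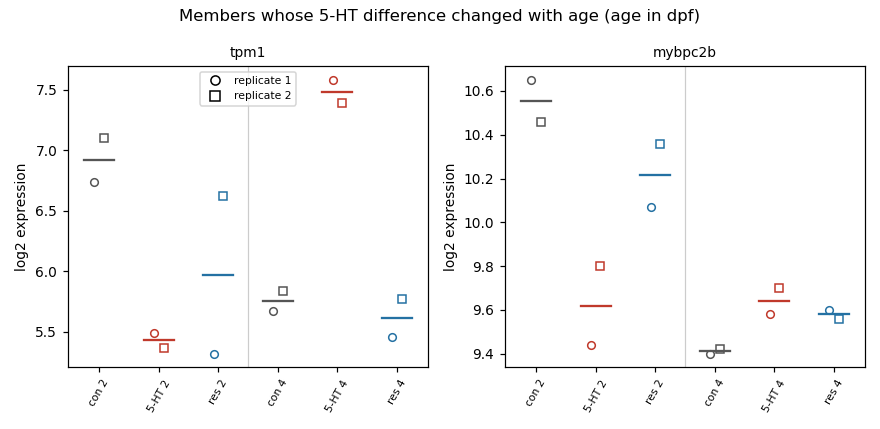
Log2 expression (vertical axis) of tpm1 and mybpc2b on each array, in control (con), 5-HT and reserpine (res) larvae at 2 and 4 dpf; circles are replicate 1, squares replicate 2 and bars the mean of 2 arrays. For tpm1 the 5-HT arrays are below the controls at 2 dpf (5.37 and 5.49 against 6.74 and 7.10) and above them at 4 dpf (7.39 and 7.58 against 5.67 and 5.84).

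On the reserpine arrays tpm1 stood at 5.32 and 6.62 at 2 dpf, and at 5.46 and 5.77 at 4 dpf. Replicate 1 of 2 dpf thus read like the 5-HT arrays of that age, and replicate 2 nearer to the controls. The pattern of tpm1 followed the second principal component of all features, which held 17.1% of the variance. On one side, at 32.86 to 50.97, it held the 5-HT arrays of 4 dpf, the controls of 2 dpf and replicate 2 of the 2 dpf reserpine group. The other 7 arrays lay at -45.36 to -11.77. The gene tpm1 was the only one of the 77 with all 5 of those arrays above the other 7, as for 2.84% of features. No gene of the 77 had all 5 below, against 2.73% of features. A further probe set carries tpm1 beside another symbol and could not be assigned to 1 gene. Its group means lay between 8.77 and 8.83 at 2 dpf and between 9.36 and 9.46 at 4 dpf. Unlike the probe set used, it averaged 8.825 in controls and 8.77 with 5-HT at 2 dpf, and 9.46 and 9.44 at 4 dpf. The values of the tpm1 probe set used lay on both sides of the array medians of 6.44 to 6.56. The part of the array-wide component in the tpm1 values was not tested.

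For mybpc2b the arrays were 10.65 and 10.46 in 2 dpf controls, 9.44 and 9.80 with 5-HT and 10.07 and 10.36 with reserpine. At 4 dpf they were 9.40 and 9.42, 9.58 and 9.70, and 9.60 and 9.56. The 5-HT arrays were thus lower than controls at 2 dpf and slightly higher at 4 dpf, when all 6 arrays lay within 9.40 to 9.70. The change in the difference was 1.17 (SE 0.23, limma adjusted p = 0.0396). Neither gene passed in this test when any 1 control or 5-HT array was left out (adjusted p = 0.0516 to 0.105 for tpm1 and 0.0706 to 0.155 for mybpc2b). The call of mybpc2b was also lost without either 4 dpf reserpine array (0.0605). For reserpine none of the 77 was called in the same contrast (0% of features), with ttn.2 (1.01) and ttn.1 (0.96) first by p.

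A few genes lay on the same side by replicate number in all 6 groups. Their share was below that of all features for replicate 1 higher, and above it for replicate 1 lower. The troponin I gene tnni4b.3 was higher on replicate 1 in all 6 groups. It measured 8.54 and 7.54 in 2 dpf controls, 8.77 and 7.34 with 5-HT and 8.50 and 7.40 with reserpine. At 4 dpf it measured 8.54 and 7.99, 8.68 and 8.22, and 8.49 and 8.0. The neighbouring symbol tnni4b.1 was higher on replicate 1 in 5 groups, with 7.86 and 7.05 in 2 dpf controls, and equal, at 6.79, in 4 dpf reserpine larvae. With myh14, a non-muscle myosin, tnni4b.3 made 2 of the 77 genes that were higher on replicate 1 in all 6 groups (2.6%, beside 5.66% of features). In the other direction 5 genes were lower on replicate 1 in all 6 (6.49%, beside 4.81% of features), namely the fast troponin I gene tnni2a.4, tpm4a, the light chain genes myl1 and myl6, and myh11b. Of these, myl6 was also higher and tpm4a lower on every 4 dpf array than on every 2 dpf array. The mean of 20 circadian clock genes was also higher on replicate 1 in every group, with 9.10 against 8.56 in 2 dpf controls and 10.12 against 9.27 in 4 dpf controls. Its part in the troponin values was not tested.

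**Figure D5:**
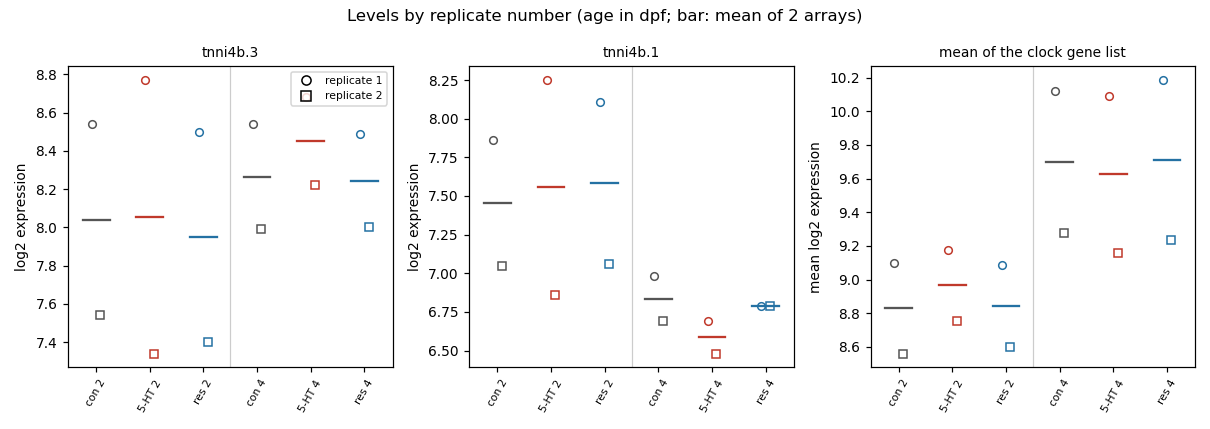
Log2 expression (vertical axis) of tnni4b.3 and tnni4b.1, and the mean log2 expression of 20 clock genes, on each array in control (con), 5-HT and reserpine (res) larvae at 2 and 4 dpf; circles are replicate 1, squares replicate 2 and bars the mean of 2 arrays. For tnni4b.3 replicate 1 lies at 8.49 to 8.77 and replicate 2 at 7.34 to 8.22.

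The spread between replicates differed among the genes. The pooled SD within groups had a median of 0.15 in the fast class, 0.16 in the slow class and 0.17 in the heart class. It was 0.046 for the least variable fast gene, mylpfa, and 0.51 for the most variable, tnni2a.1. At 2 dpf the SD of tnni2a.1 was 0.69 in controls and 1.00 in reserpine larvae, against 0.035 in 4 dpf controls (n = 2 each).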

How the data were processed

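The deposited table holds log2 expression values, as the authors gave them, for 73244 features on 12 arrays. The software, normalization and genome build were not given in the sources used, and no column was left unused. Array medians lay between 6.44 and 6.56. Precision is limited by 2 arrays per group. Genes were named from the platform annotation, where 20491 probe sets carry 1 symbol, 842 several and 51911 none. Of the 77 genes, 76 matched a RefSeq gene table, and 9 had more than 1 probe set. A further 7 probe sets with several symbols were left out.

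Features at or above the array's 25th percentile on at least 2 arrays (58127) were fitted with limma 3.58.1 under R 4.3.3 (lmFit, eBayes, two-sided) as 6 group means over all 12 arrays, with 6 residual and 3.53 prior degrees of freedom. P-values were adjusted by Benjamini-Hochberg over all features within each of 11 comparisons. An exact permutation test of 2 arrays against 2 cannot go below p = 0.333. The fit was tested on simulated data. Named genes are those called in a comparison, or the 5 with the smallest p where fewer than 5 were called, the 3 with the highest mean per class, and the 3 with the smallest p in other lists; other members are named where a group is described. The members, classes and 12 further gene lists were chosen with earlier results of these data known. The classes with added paralogs were set after the annotation was seen. Alternatives were other filters, quantile normalization, median centring, an intensity trend, a replicate block, only the arrays compared, mean probe sets and leaving out arrays.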

Additional observations from a re-analysis of the deposited data

Results flagged for a closer look

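The difference between 5-HT and control larvae was not the same at 2 and 4 dpf for 2 of the 77 genes (2.6%). The limma test of that difference, with Benjamini-Hochberg adjustment, called 2.16% of all features and 0.608% of named genes. The difference was 3.22 higher at 4 dpf for tpm1 (SE 0.49, limma adjusted p = 0.0208), and 1.17 higher for mybpc2b (SE 0.23, limma adjusted p = 0.0396), both on the log2 scale. The tpm1 values lay on both sides of the array medians of 6.44 to 6.56. A probe set with tpm1 and another symbol averaged 8.825 in controls and 8.77 with 5-HT at 2 dpf, and 9.46 and 9.44 at 4 dpf. The tpm1 values followed the array-wide second principal component, whose part in them was not tested. Both 5-HT arrays lay below both control arrays at 2 dpf for 22.7% of all features, and above both at 4 dpf for 21.6%. At each age the control and 5-HT arrays did not overlap, in these directions, for tpm1 or mybpc2b. Neither passed when any 1 of these 8 arrays was left out (adjusted p = 0.0516 to 0.105 for tpm1 and 0.0706 to 0.155 for mybpc2b).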

How the results depend on the processing

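None of the 42 called differences reversed its direction under any alternative run. Of the 805 that were not called, 381 turned under at least 1 alternative. Of the 12 fast, slow and heart medians against control, 5 did. Filters, quantile normalization, median centring, an intensity trend and the mean of a gene's probe sets left every count of called genes within 1.5 times that reported. With only the arrays of the compared groups, 3 genes were called between 4 and 2 dpf in reserpine larvae instead of 14. Over all features that fit called 831 instead of 4038. Without both 2 dpf reserpine arrays, a choice made after seeing the data, 2 genes were called between 5-HT and control at 2 dpf, 1 at 4 dpf and 1 between 5-HT and reserpine at 4 dpf. The counts over all features in that fit are not given here, so these calls stand without a background share. Leaving out each replicate in turn gave 5 to 15 called genes between ages in controls, 3 to 17 with 5-HT and 6 to 13 with reserpine. It gave 0 to 2 between 5-HT and control at 2 dpf, 0 to 1 for reserpine at 2 dpf, 0 to 1 for 5-HT at 4 dpf, 0 to 1 between 5-HT and reserpine at 4 dpf and 0 to 2 for the change of the 5-HT difference with age. Between ages in controls and in 5-HT larvae, the highest number came without a 2 dpf reserpine array. Each of these fits estimates the spread from fewer arrays, and the cause of the moves was not tested. The fit with the replicate block called 15 genes between ages in controls, 16 with 5-HT and 16 with reserpine, all 13, 13 and 14 called genes included, and 2 for the 5-HT difference. Over all features it called 8569, 7172 and 5451 between ages, against 6578, 5357 and 4038 without the block. For the 5-HT difference it called 1614 features, against 1253. The labels do not say that a replicate number is shared between groups, so the numbers were not taken to pair the samples. Same-numbered arrays deviated with r = -0.066 to 0.329 over 15 pairs of groups, below 0 only between reserpine at 2 dpf and at 4 dpf. Replicate 1 was higher in all 6 groups for 5.66% of features and lower in all 6 for 4.81%. Whether same-numbered arrays share a batch was not tested. With 2 arrays per group the median standard error of a difference was 0.20. Whole larvae give no cell counts.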

Other observations

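In 5-HT larvae, 6 of 23 muscle energy genes were called higher at 4 than at 2 dpf and none lower (limma), including cox6a2 (1.45), the phosphofructokinase gene pfkma (0.97) and the mitochondrial creatine kinase gene ckmt2a (0.90). Of all features, 5.06% were called higher and 4.15% lower in 5-HT larvae. Of 42 Z-disc, M-band and chaperone genes, 7 were called higher and 2 lower. The ubiquitin ligase genes fbxo32, trim63b and trim63a, which act in muscle protein turnover, were called higher, by 2.81, 1.05 and 1.21. In controls fbxo32 was called higher by 1.87. For trim63b and pfkma the difference between 5-HT and control in the change with age did not pass (0.76 and 0.83, limma adjusted p = 0.130 and 0.138).

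Of 24 junction and membrane genes in 5-HT larvae, the acetylcholine receptor gene chrnb1l (-1.38) and the membrane repair gene dysf (-1.19) were called lower and the muscle sodium channel gene scn4ab (1.15) higher. For chrnb1l and dysf the difference from control in the change with age did not pass (-1.23 and -0.66, limma adjusted p = 0.0817 and 0.267). In reserpine larvae dysf (-0.87) was called lower and scn4ab (1.16) higher. Of 14 heart factors in reserpine larvae, 4 were called lower, among them hand2 (-0.71), nkx2.7 (-0.78) and tbx5a (-0.60), and nppal was called higher (0.85). Of all features, 4.45% were called higher and 2.5% lower in reserpine larvae.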
